A study of Homo sapiens with 6 samples.

Results

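Dense runs are stretches of the genome where open regions follow each other closely. They were found among the regions counted by FAST-ATAC, which uses the Tn5 transposase to cut and tag accessible DNA for sequencing. The cells were of WA09, a line of human embryonic stem cells. They were sorted on surface antigens into a GCTM-2highCD9highEPCAMhigh population (the high population, 3 replicates) and a GCTM-2midCD9mid population (the mid population, 3 replicates), for which the labels give no EPCAM state and whose sample titles say low. All 6 samples came from this 1 line, which was maintained in the same way for both sorts, so the groups differ in their sort gates and in nothing else that the labels name. A run was defined as at least 5 consecutive regions on the 22 autosomes with every gap between neighbours under 2500 bp. This rule used positions and no counts, and it found 40 regions in 8 runs, of 114670 autosomal regions and 118556 regions in all. Each run held exactly 5 regions.

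An open region is a stretch that nucleosomes leave free often enough for the transposase to reach it, as at promoters, enhancers and insulators. In embryonic stem cells, closely spaced open elements are known from CpG islands, from the loci of developmental regulators and from clusters of active enhancers. A read count in a sorted population is an average over its cells, so fewer cells with a region open and a less open region in each cell cannot be told apart. Which genes the 8 runs lie at was not determined, because no annotation of the build of the counts (hg19) was used here.

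In hg19, the runs lay at chr1:221047399-221062398, chr5:180585917-180602345, chr6:1604105-1625452, chr6:50681989-50692850, chr7:27127334-27142097, chr12:6927161-6939352, chr13:112707468-112728885 and chr14:38051858-38069791. Chromosome 6 was the one autosome with more than 1 run, and these are called the first and the second chromosome 6 run. The longest was the chromosome 13 run, with a span of 21418 bp of which 15955 bp were open, followed by the first chromosome 6 run with 21348 bp and 16183 bp open. The shortest was the second chromosome 6 run, with 10862 bp and 6144 bp open. Open sequence made up between 55.6% of the span, in the chromosome 7 run, and 75.8%, in the first chromosome 6 run. Reads summed over the 6 samples came to 768 per kb of open sequence in the chromosome 7 run and 780 in the second chromosome 6 run. The other 6 runs held between 1095 reads per kb, on chromosome 12, and 1190 reads per kb, on chromosome 14.

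Runs of this length were rare. Chains of regions joined by gaps under 2500 bp numbered 91058 of 1 region, 10288 of 2, 888 of 3 and 83 of 4 on the autosomes, beside the 8 runs, which held 0.0349% of autosomal regions. The 32 gaps inside runs had a median of 1331.5 bp and ran from 19 to 2498 bp, with 11 under 1000 bp, against a median of 12678 bp for all autosomal gaps. Gap size was what the rule used. Region width and read density were not used by the rule, and both were high. The 40 regions had a median width of 1968.5 bp (from 649 to 6560 bp) against 882 bp for all autosomal regions, and 39 of them were at least as wide as that median. Their median density was 1028 reads per kb summed over the samples, against 605 for all autosomal regions, and 38 of the 40 were at or above it. The median width was 868 bp for single regions and 915 bp, 981 bp and 1236 bp for regions in chains of 2, 3 and 4. The median density followed the same order, with 597 reads per kb for single regions and 620, 678 and 826 reads per kb for those chains.

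The gaps just inside the limit were 2498 bp, in the chromosome 7 run, and 2447 bp, in the first chromosome 6 run. Just outside it, neighbouring chains were searched in pairs that together held 5 or more regions, and joins of longer series were not searched. The 5 pairs with the smallest joining gaps, between 2594 and 2752 bp, held 5 or 6 regions each. The nearest of them, chr12:52413548-52431841 with 6 regions, summed to a CPM of 102 ± 6.51 in the high samples and 134 ± 24.5 in the mid samples (SD, n = 3), and 0 of its regions were called. Of the others, chr17:37773537-37788549 held 2 regions called higher in mid, where 3.77% of all regions were. The pairs at chr17:48906152-48919816 and chr5:87975263-87990281 held 1 each, and chr5:168411077-168420278 held 0. A chain of 5 regions on chromosome X, chrX:91353308-91366318, met the gap rule but not the restriction to autosomes.

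**Figure D1:**
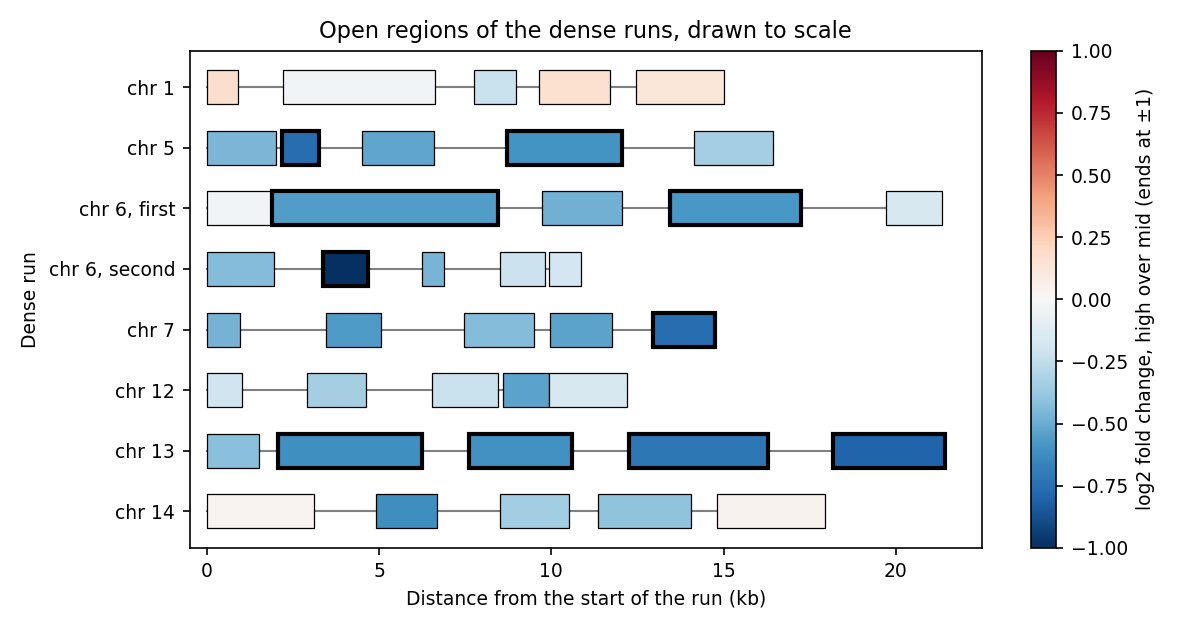
Map of the 8 dense runs to scale, with distance from the start of the run in kb on the x axis and 1 run per line. Boxes are open regions, their colour is the change on the log2 scale, high over mid (blue is lower in high, red is higher, and the scale ends at 1 in either direction), and a thick outline marks the 10 regions called in edgeR at an adjusted p under 0.01. With this TMM scaling all boxes of 6 runs are on the blue side, and the chromosome 1 run holds 3 of the 5 red boxes.

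The question put to the runs was whether a cluster of open regions was equally accessible in the high and the mid population. Counts were summed over each run and scaled by TMM (trimmed mean of M values) to CPM, which gives each sample's reads per fixed library total. They were tested with edgeR's quasi-likelihood test over all 105841 chains of the table, with replicate number as a block, and called at a Benjamini-Hochberg adjusted p under 0.01. Of the 8 runs, 5 were called higher in the mid population (62.5%), where 4.08% of all chains were. In the high population 0 runs were called higher in edgeR, where 2.46% of all chains were. At an unadjusted p under 0.05, 7 runs were lower in the high population and 0 were higher, but the share of all chains at that level was not taken. DESeq2 called 5 runs in mid, where 3.52% of all chains were, and 0 in high, where 0.853% were. The fold changes of all 8 ran from -0.69 to 0.02 (log2) with a median of -0.49, where the median of all chains was 0.03. The 7 runs below 0 under TMM became 5 with offsets fitted by loess on average log2 CPM and 4 with offsets fitted by loess on open length. In 6 runs every high sample lay below every mid sample, and in 0 runs above, where 13.3% and 13.0% of all chains did so.

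Under TMM the chromosome 13 run had the largest change, but not under the loess offsets, where its log2 fold change was -0.29 (on log2 CPM) and -0.07 (on open length). Its summed CPM was 99.5, 101 and 103 in high replicates 1, 2 and 3 and 158, 179 and 154 in mid replicates 1, 2 and 3. The high samples lay close together and far below the mid samples, and the mean was 101 ± 1.99 against 164 ± 13.5 (SD, n = 3). The mid population was higher 1.62-fold (log2 fold change, high over mid, -0.69, SE 0.11, edgeR adjusted p = 1.06e-05).

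The chromosome 5 run held 70.2, 73.5 and 71.5 CPM in high replicates 1, 2 and 3 and 112, 106 and 90.1 CPM in the mid replicates. The groups did not overlap, and here too the high samples were more alike (71.7 ± 1.65) than the mid samples (103 ± 11.5). The log2 fold change was -0.52 (SE 0.12, edgeR adjusted p = 0.00147).

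In the chromosome 7 run, CPM was 42.2, 34.3 and 34.2 in the high replicates and 53.7, 61.3 and 47.6 in the mid replicates. The difference was widest between the replicate 2 samples, with a log2 ratio of -0.84, and the log2 fold change was -0.55 (SE 0.13, edgeR adjusted p = 0.00159). The second chromosome 6 run, the one with the fewest reads, showed 33.8, 27.1 and 24.6 CPM in the high replicates and 45.4, 39.7 and 37.4 CPM in the mid replicates. Replicate 1 was the highest of each group and replicate 3 the lowest, and the log2 fold change was -0.53 (SE 0.13, edgeR adjusted p = 0.00301). The first chromosome 6 run held 114, 113 and 103 CPM in the high replicates and 157, 167 and 133 CPM in the mid replicates. Its groups were also apart, with a log2 fold change of -0.46 (SE 0.11, edgeR adjusted p = 0.00315).

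The other 3 runs were not called. The chromosome 12 run had 52.4, 60.9 and 62.3 CPM in the high replicates and 78.8, 71.7 and 64.1 CPM in the mid replicates. All high samples lay below all mid samples, but the replicate 3 samples were nearly equal, and the log2 fold change was -0.29 (SE 0.12, edgeR adjusted p = 0.108). The chromosome 14 run had 125, 90.8 and 87.7 CPM in the high replicates and 122, 129 and 108 CPM in the mid replicates. High replicate 1 reached the mid level, the other high samples did not, and the log2 fold change was -0.26 (SE 0.12, edgeR adjusted p = 0.128). Without replicate 1 this run passed the threshold, at -0.43 (edgeR adjusted p = 0.00153). The chromosome 1 run had 103, 90.3 and 81.4 CPM in the high replicates and 99.8, 89.2 and 82.3 CPM in the mid replicates. Same-numbered samples were nearly equal and the groups overlapped fully, at 91.7 ± 11.0 and 90.4 ± 8.79 (SD, n = 3), with a log2 fold change of 0.02 (SE 0.12, edgeR adjusted p = 0.942). The chromosome X chain, with 61.1 ± 5.60 and 54.9 ± 10.1 CPM, was likewise not called (log2 fold change 0.16, edgeR adjusted p = 0.392).

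**Figure D2:**
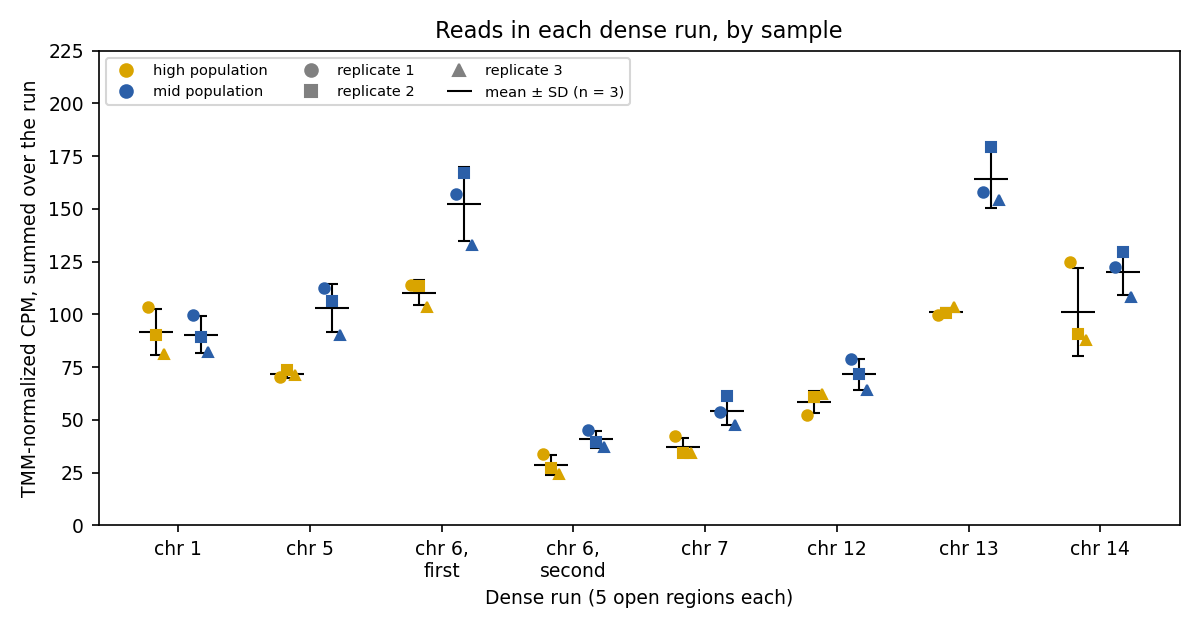
Summed reads of each dense run by sample, as TMM-normalized CPM on a linear y axis, with the runs on the x axis. Yellow points are the high and blue points the mid population, the marker shape gives the replicate, and lines are the mean ± SD (n = 3). The chromosome 13 run has the widest gap between the populations, 101 against 164 CPM, and the samples of the chromosome 1 run overlap.

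These run calls rested on the block, on replicate 2 and on how the counts were scaled. Without the block 1 run was called higher in mid, where the share of all chains went from 4.08% to 1.29%. Without replicate 2, 0 runs were called in edgeR, where that share was 0.293%, with the 5 fold changes then between -0.62 and -0.41. Loess offsets on log2 CPM or on open length left 0 runs called in mid, where 2.83% and 2.80% of all chains were. Both called the chromosome 1 run higher in the high population, at 0.37 (edgeR adjusted p = 0.00991) and 0.54 (edgeR adjusted p = 0.000194), where 3.34% and 2.90% of all chains were.

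Other long stretches of open sequence were read beside the runs. Among chains of fewer than 5 regions, 690 had an open length in the range of the runs, 6144 to 16183 bp. Of these, 52.5% were called higher in the mid population and 0.290% in the high population, and their median log2 fold change was -0.45 with quartiles of -0.62 and -0.28. Whether the runs differ from these chains was not tested.

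**Figure D3:**
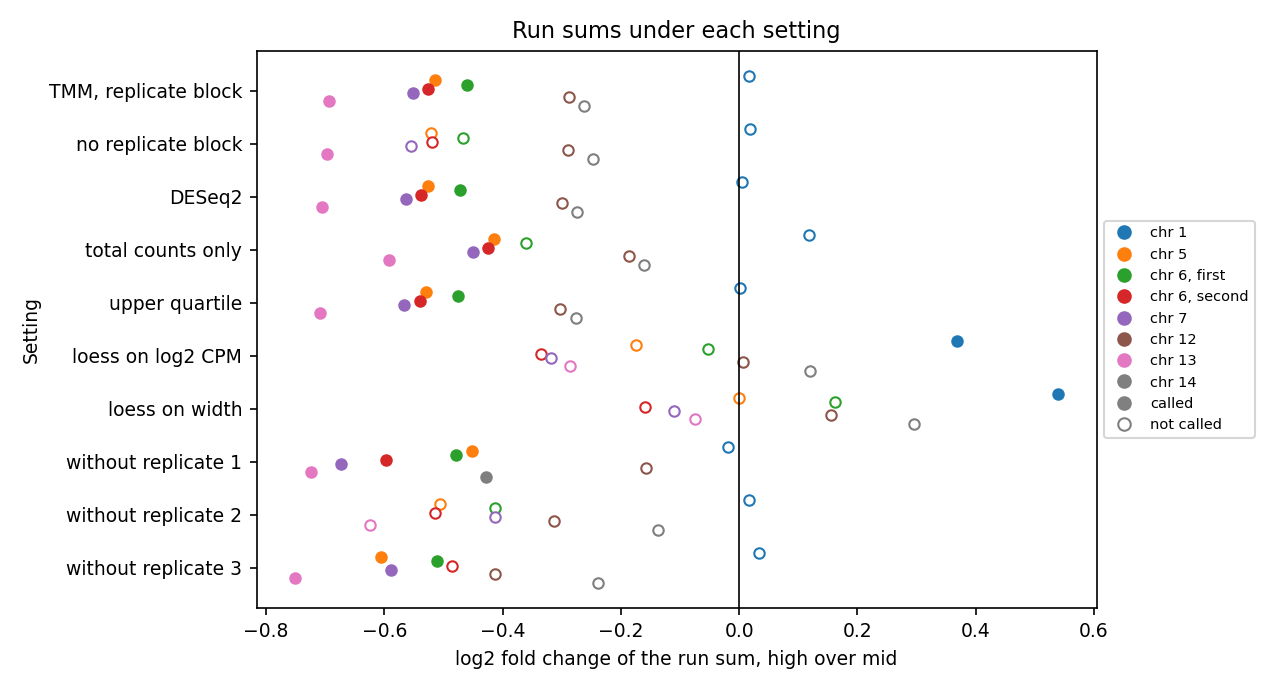
Log2 fold change of each run sum, high over mid, on the x axis under 10 settings of the analysis on the y axis, with filled points called at an adjusted p under 0.01. The 5 called runs stay between -0.75 and -0.36 under TMM, the other global scalings, DESeq2, no block and each replicate left out, and move toward 0 or past it under both loess offsets.

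At the level of single regions, 10 of the 40 regions (25%) were called higher in the mid population in edgeR, where 3.77% of all 118556 regions were. In the high population 0 of 40 were called higher, where 2.32% of all regions were. DESeq2 also called 10 in mid, where 3.18% of all regions were, and 0 in high, where 0.835% were. At an unadjusted p under 0.05, 26 regions passed, and in all of them the high population was lower. The share of all regions passing at that level was not taken. The log2 fold changes ran from -1.40 to 0.18 with a median of -0.44, where the median of all regions was 0.03. Under TMM 35 of the 40 lay below 0, and under either loess offset 33 did, with 6 of the 40 called in mid after the fit on log2 CPM, where 2.62% of all regions were, and 5 after the fit on width, where 2.38% were. Every high sample was below every mid sample in 21 of the 40 regions, where 13.0% of all regions were so. The reverse held in 0 of the 40, where it held in 12.9% of all regions. Without the block 2 of the 40 regions were called in mid, where 1.11% of all regions were, and without replicate 2 it was 1 of 40, where 0.369% were.

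Called regions were found in 5 runs, the 5 whose sums were called, and none of the 8 runs held called regions of both directions. In the chromosome 13 run 4 of 5 regions were called, the second to the fifth. The fifth, chr13:112725639-112728885, had 27.1, 29.2 and 27.6 CPM in high replicates 1, 2 and 3 and 48.4, 49.4 and 48.5 CPM in the mid replicates. Its replicates were almost equal within each group, with a log2 fold change of -0.80 (SE 0.13, edgeR adjusted p = 7.90e-06). The fourth, chr13:112719737-112723745, had 28.8, 27.8 and 27.7 CPM in the high and 47.1, 50.3 and 42.2 CPM in the mid replicates. It was likewise lower in the high population, with a log2 fold change of -0.72 (SE 0.13, edgeR adjusted p = 5.48e-05). Regions 2 and 3 of the run, 4190 and 2999 bp wide, both had a log2 fold change of -0.61 (edgeR adjusted p = 0.00155 and 0.00235). The first region was the narrowest of the run, 1510 bp. Its log2 fold change was -0.42 and it was not called (edgeR adjusted p = 0.0788).

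The region with the largest change was the second of the second chromosome 6 run, chr6:50685369-50686677. It held 4.85, 3.88 and 1.52 CPM in the high replicates and 10.1, 7.44 and 7.63 CPM in the mid replicates. High replicate 3 was the lowest, and all high samples were below all mid samples. The mean was 3.41 ± 1.71 against 8.39 ± 1.48 CPM (SD, n = 3), with a log2 fold change of -1.40 (SE 0.21, edgeR adjusted p = 3.89e-06). The other 4 regions of this run were not called, with log2 fold changes between -0.47 and -0.18. The first of them, 1941 bp wide, held the most reads of the run, 49.3% ± 2.71 of its reads in the high samples and 46.6% ± 0.488 in the mid samples (SD, n = 3).

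In the first chromosome 6 run, the second and the fourth region were called. The second, chr6:1605990-1612549, was the widest of all 40 at 6560 bp. It had 47.1, 46.1 and 39.5 CPM in the high and 71.2, 70.0 and 55.2 CPM in the mid replicates. Replicate 3 was the lowest of each group, and the log2 fold change was -0.56 (SE 0.12, edgeR adjusted p = 0.000819). The fourth, 3806 bp wide, had a log2 fold change of -0.58 (SE 0.13, edgeR adjusted p = 0.00173). The outermost regions of this run had log2 fold changes of -0.03 and -0.17, and neither was called.

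In the chromosome 5 run the second region, chr5:180588089-180589165, and the fourth, chr5:180594630-180597954, were called. The second had 5.48, 5.78 and 4.15 CPM in the high and 10.7, 8.87 and 6.78 CPM in the mid replicates, a log2 fold change of -0.76 (SE 0.18, edgeR adjusted p = 0.00283). The fourth had 20.3, 20.7 and 20.8 CPM in the high and 35.8, 31.9 and 26.7 CPM in the mid replicates, a log2 fold change of -0.60 (SE 0.14, edgeR adjusted p = 0.00158). In all 5 regions of this run every high sample was below every mid sample. In the chromosome 7 run only the fifth region, chr7:27140274-27142097, was called. Its values were 6.56, 6.34 and 5.04 CPM in the high and 10.1, 12.4 and 8.16 CPM in the mid replicates. The groups were apart, with a log2 fold change of -0.76 (SE 0.18, edgeR adjusted p = 0.00201), and those of the other 4 regions were between -0.57 and -0.44.

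The 3 runs that were not called as sums held no called region. In the chromosome 14 run the 2 end regions had log2 fold changes of 0.03 each, and the second region one of -0.62 (SE 0.18, edgeR adjusted p = 0.0129). That second region had 16.3, 7.81 and 9.52 CPM in the high and 14.9, 21.2 and 14.7 CPM in the mid replicates, so high replicate 1 lay among the mid samples. In the chromosome 12 run all 5 regions were below 0, between -0.53 and -0.17. In the chromosome 1 run they ran from -0.22 to 0.18, and in each the groups overlapped. The median width was 3286 bp for called and 1885.5 bp for uncalled regions of the 8 runs, and a wider region collects more reads.

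**Figure D4:**
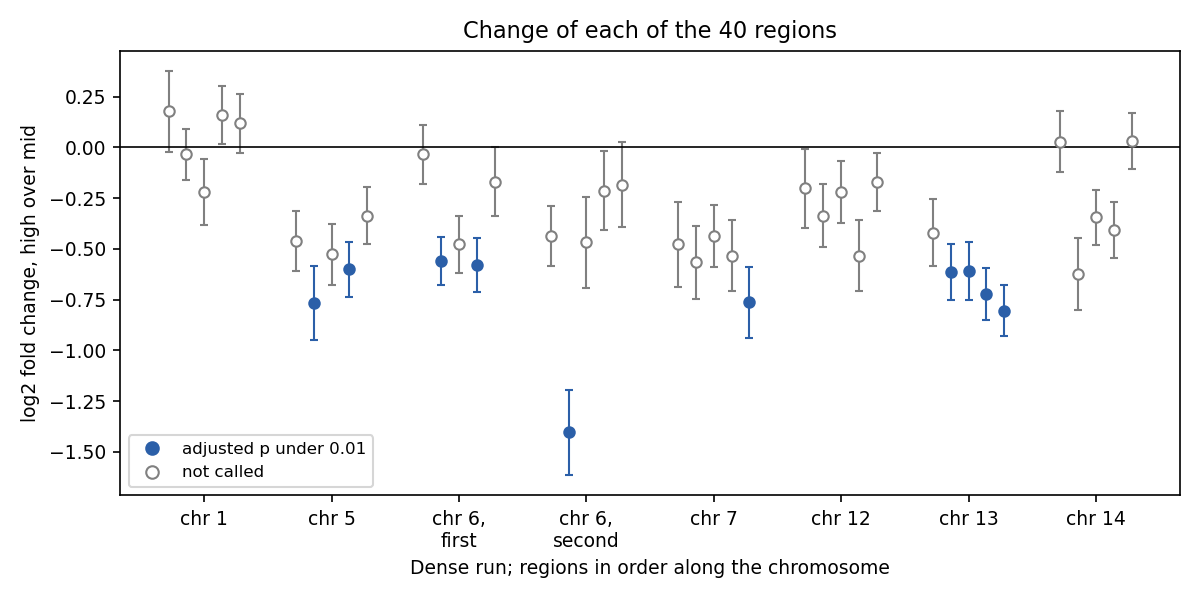
Log2 fold change of high over mid for each of the 40 regions, in order along the chromosome within its run, with the SE of the edgeR fit as bars. Blue points are called at an adjusted p under 0.01 and open points are not. The lowest point, at -1.40, is the second region of the second chromosome 6 run, and 4 of the 5 points of the chromosome 13 run are called.

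Whether the 5 regions of a run changed by different amounts was tested in edgeR as an interaction of region and population, over the 11607 chains of 2 or more regions. In 0 of the 8 runs did the regions differ at an adjusted p under 0.01, and 0.0948% of the chains tested did. The smallest adjusted p in edgeR was 0.0908, for the second chromosome 6 run, whose second region had a log2 fold change of -0.61 relative to the run as a whole. At an unadjusted p under 0.05, 3 runs passed, the pair on chromosome 6 and the run on chromosome 14. The share of the tested chains passing at that level was not taken.

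The share of regions called higher in the mid population rose with the length of the chain. Of single regions, 3.49% were called higher in mid and 2.42% higher in high. In chains of 2, 4.62% of regions were called higher in mid, in chains of 3 it was 7.39%, in chains of 4 13.6% and in the runs of 5 25%. The share of regions called higher in high went the other way, with 1.83% in chains of 2, 1.28% in chains of 3, 0.301% in chains of 4 and 0 in the runs. By chain sum, the share called in high did not fall steadily. It was 2.47% for single regions, 2.12%, 1.13% and 2.41% for chains of 2, 3 and 4, and 0 for the runs. The share of chain sums called in mid rose from 3.78% through 6.38%, 11.9% and 22.9% to 62.5%. The median log2 fold change of regions went from 0.05 for single regions through -0.02, -0.10 and -0.23 to -0.44 in the runs. The last step rests on 40 regions and the one before it on 332. Median width and density followed the same order, as given above, and their part in the order was not tested.

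**Figure D5:**
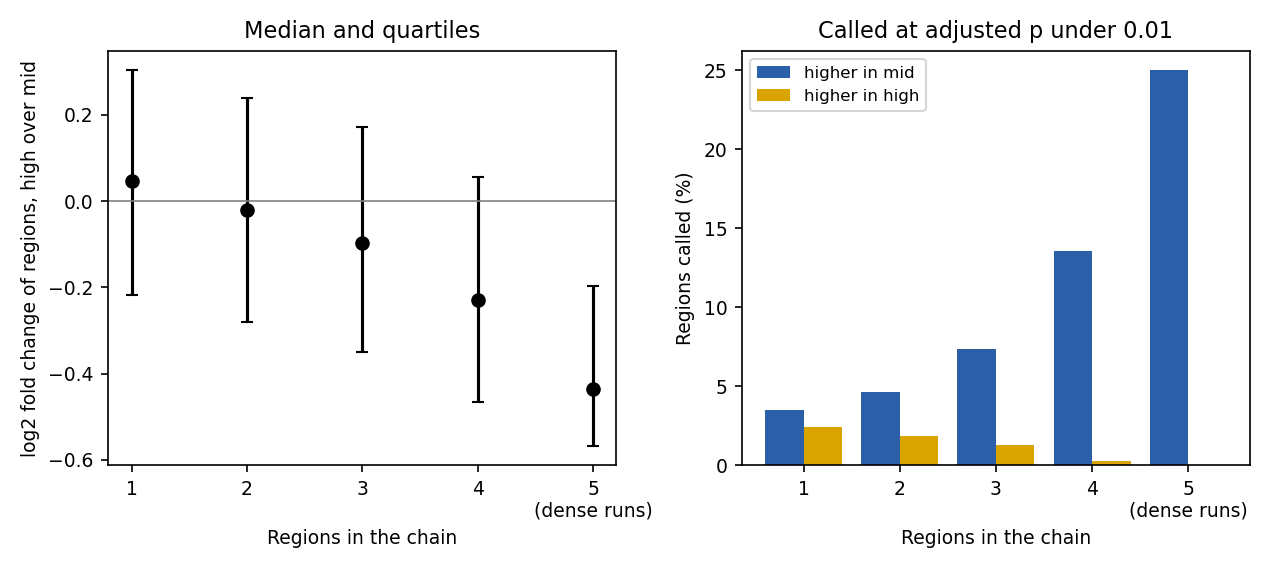
Regions grouped by the number of regions in their chain (x axis, 1 to 5). On the left are the median and quartiles of the log2 fold change, high over mid, and on the right the percent of regions called higher in mid (blue) and in high (yellow). The median is 0.05 for single regions and -0.44 for the runs, and the share called in mid is 3.49% and 25%.

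Regions of the same width outside the runs were compared next. Weighted to the widths of the run regions over 10 width bins, 12.6% of 88508 other autosomal regions were called higher in mid and 2.37% in high, and the median log2 fold change, averaged over the bins, was -0.11. Weighted in the same way to the total reads of the run regions, 9.49% of 66749 other regions were called in mid and 3.19% in high, and that median was -0.09. Both shares in mid lay between the 3.77% of all regions and the 25% of the run regions. The difference was also taken per sample, as the log2 ratio of mean reads per kb in run regions to the mean in other regions of like width, averaged over the bins. It was -0.34, -0.40 and -0.47 in high replicates 1, 2 and 3 and -0.15, 0.01 and -0.23 in mid replicates 1, 2 and 3. At like width, then, run regions held fewer reads per kb on average than other regions in every sample but mid replicate 2, and all high samples were below all mid samples. A mean is raised by a few very dense regions, and medians at like width were not taken. Over all autosomal regions the density had a median of 605 and a maximum of 84498 reads per kb. The means were -0.40 ± 0.07 and -0.12 ± 0.12 (SD, n = 3), a difference of -0.28 (two-sided exact permutation test, p = 0.1, the smallest that 3 against 3 samples allow), and -0.18, -0.40 and -0.24 within the same-numbered pairs. In linear terms, run regions had 0.758 ± 0.0354 of the mean density of other regions of like width in the high samples and 0.919 ± 0.0767 in the mid samples (SD, n = 3).

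Of all counts in the table, the runs took 0.0655%, 0.0621% and 0.0587% in high replicates 1, 2 and 3 and 0.0756%, 0.0841% and 0.0710% in mid replicates 1, 2 and 3. The 95% Wilson interval of each share was between 0.00185 and 0.00248 percentage points wide, which covers counting error only, so the gaps between samples were larger than counting error. The groups were apart, at 0.0621% ± 0.00342 and 0.0769% ± 0.00664 (SD, n = 3). The difference was -0.0148 percentage points (two-sided exact permutation test, p = 0.1), and it was negative in all 3 same-numbered pairs, at -0.0101, -0.0220 and -0.0123 percentage points.

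How reads were spread inside a run was compared in 2 ways. The widest region of a run held on average 33.3% ± 1.06 of its reads in the high samples and 32.6% ± 0.504 in the mid samples (SD, n = 3), and the samples overlapped (two-sided exact permutation test, p = 0.5). It was higher in the high sample in all 3 same-numbered pairs, by 1.34, 0.266 and 0.342 percentage points. This direction turned with the region holding the most reads in place of the widest, at -0.526 percentage points (exact permutation test, p = 0.5). It also turned in runs of 4 or more regions, at -1.04, and with gaps under 5000 bp, at -1.13 (exact permutation test, p = 0.1 for each). Reads per kb in the first and last region were also set against reads per kb in the inner regions, as a log2 ratio averaged over the runs. This was -0.02, 0.15 and 0.10 in the high replicates and -0.17, -0.12 and -0.04 in the mid replicates. Each high sample lay above each mid sample, at 0.08 ± 0.08 against -0.11 ± 0.07 (SD, n = 3). The difference was 0.19 on the log2 scale (two-sided exact permutation test, p = 0.1), and 0.16, 0.27 and 0.14 within the same-numbered pairs. Its size depended on the definition of a run, with 0.047 in runs of 4 or more regions (exact permutation test, p = 0.2) and 0.035 with gaps under 5000 bp (exact permutation test, p = 0.1). Over both populations the ratio differed between runs, from -0.74 in the chromosome 14 run to 0.74 in the second chromosome 6 run.

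The regions around the runs were set against the runs. On each side the 5 nearest regions were taken, 80 in all, which reached between 29.1 kb and 352 kb from the run. Of these flanking regions 10 were called higher in mid (12.5%), where 3.77% of all regions were, and 1 in high, where 2.32% were. Their median log2 fold change was -0.14, where the median of all regions was 0.03. The mean log2 ratio of reads per kb in a run to that in its flanks was 0.19, 0.11 and 0.12 in the high replicates and 0.37, 0.35 and 0.21 in the mid replicates. All high samples were below all mid samples, at 0.14 ± 0.05 against 0.31 ± 0.09 (SD, n = 3), a difference of -0.17 (two-sided exact permutation test, p = 0.1), and of -0.17, -0.24 and -0.09 within the same-numbered pairs. This ratio was lower in the high population in 6 of the 8 runs. The difference was -0.52 on chromosome 13 and -0.47 on chromosome 14. On chromosome 14 the regions around the run lay far away, up to 352 kb before it and 210 kb after it, and 1 of them was called in the high population. The chromosome 12 run went the other way (0.30), and 3 of its 10 flanking regions were called higher in mid while 0 of its own 5 were. In the chromosome 5 run all 10 flanking regions were lower in the high population and the difference of the ratio was 0.03, and in the chromosome 7 run 9 of 10 were lower and it was -0.04. Flanking regions were narrower than those of the runs, with a median of 916 bp.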

How the data were processed

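Reads of the 6 libraries (9 PCR cycles) were trimmed by the authors with trimmomatic, aligned to hg19 with bwa 0.7.15, freed of duplicates with Picard and shifted to the Tn5 cut site. The authors called regions with MACS (1.4.2 in the submitters' processing notes) on pooled replicates, merged those of the 2 populations, left out blacklisted ones and used bedtools for counting. What was deposited are raw counts, 1 per region and replicate. Gaps and widths, and so the runs, depend on that pooled calling and merging, and a wide region has more reads and more power. Total counts ran from 15486251 to 29025274 per sample. Starts are printed 1 higher than deposited, taking the table to count from 0. That the table is not in GRCh38 coordinates was checked: on 15 of 24 chromosomes a region lies past the GRCh38 end.

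The tests were run with edgeR 4.0.16 under R 4.3.3 (TMM, factors 0.917 to 1.05, quasi-likelihood test, no filter), over all 118556 regions and over all 105841 chains, with Benjamini-Hochberg adjustment over each table and calls under 0.01. Replicate number was a block of 3 levels. Deviations from the group means correlated positively between same-numbered samples (r of 0.30, 0.19 and 0.23 across regions, which are not independent). Between others r ran from -0.26 to 0.06. Deviations within a group sum to 0, so positive r between some samples forces lower r between others, and these values are not separate evidence. That the numbers pair the samples was an assumption of the fit. P-values measure the spread between these replicates of 1 line. Values per sample were compared by two-sided exact permutation tests (scipy 1.17.1), which cannot go below p = 0.1. The interaction test (edgeR's diffSpliceDGE) and the flanking regions were added after the data were seen. Alternatives used DESeq2 1.42.0 and limma 3.58.1 (loess, span 0.3), other scalings, a filter, other gap and length rules, and samples left out. Fits were also run on simulated counts that held no replicate effect and no trend with width or abundance. They cannot bear on the choice of block or scaling.

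The members and lists were chosen with earlier results of these data known. With 8 runs, every run is described, which includes those that the rule for naming runs picks (largest change, smallest p, most regions, most reads per kb and change nearest 0). Gene names, sequences and distances to genes are not reported here, since the reference at hand is GRCh38.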

Additional observations from a re-analysis of the deposited data

How the results depend on the processing

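With no replicate block, 2 regions and 1 run were called higher in mid, where the block gave 10 and 5. Loess offsets on average log2 CPM gave 6 regions and 0 runs in mid and 1 run in high, and on width 5 regions, 0 runs and 1 run. A threshold of 0.05 gave 20 regions in mid, but the share of all regions at that threshold was not taken. Runs of 4 or more regions (372 regions, 91 runs) gave 55 regions (14.8%, all regions 3.77%) and 24 runs (26.4%, all chains 4.08%) in mid. In high they gave 1 region (0.269%, all regions 2.32%) and 2 runs (2.20%, all chains 2.46%). Gaps under 5000 bp (1679 regions, 305 runs) gave 222 regions (13.2%, all regions 3.77%) and 92 runs (30.2%, all chains 4.68%) in mid. In high they gave 3 regions (0.179%, all regions 2.32%) and 1 run (0.328%, all chains 2.40%). Leaving out a pair or a sample gave 1 to 16 regions and 0 to 6 runs in mid. The shares called in mid moved too, from 0.364% to 4.64% of all regions and from 0.293% to 5.10% of all chains. The lowest counts came without replicate 2 (1 region, 0 runs), mid replicate 2 alone (1 and 0) or high replicate 2 alone (2 and 0). In these fits 0.369%, 0.364% and 0.708% of all regions were called in mid. With the block, a sample whose same-numbered partner is left out adds almost nothing to the fold change. Leaving out a pair or either of its samples is therefore nearly the same fit, and these counts are not separate checks. The most regions, 16, came without high replicate 1, where 3.83% of all regions were called in mid. The difference in the share of the widest region (0.651 percentage points) turned to -1.04 in runs of 4 or more, -1.13 with gaps under 5000 bp and -0.526 with the region holding the most reads. It ranged from 0.0533 to 1.06 with samples left out. Log2 fold changes of run sums turned sign on chromosome 12 (0.0069 and 0.15) and 14 (0.12 and 0.30) under the loess offsets on log2 CPM and on width, in the first chromosome 6 run (0.16) under that on width, and on chromosome 1 without replicate 1 (-0.019), within a range of -0.023, without high replicate 1, to 0.043, without high replicate 3. The cause was not tested.

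In the other results of the samples all high samples lay on the same side of all mid samples. Leaving out a pair or a sample could therefore change the size of the difference but not its sign. The share of counts then ranged from -0.0177 to -0.0112 percentage points. On the log2 scale the density ranged from -0.33 to -0.21 at like width and from -0.22 to -0.13 against the flanks. That of ends against inner regions ranged from 0.15 to 0.24. The last was 0.047 in runs of 4 or more, 0.035 with gaps under 5000 bp and 0.29 as a median over runs. With 2 against 2 samples, the exact permutation test cannot go below p = 0.333. Gaps under 1000 bp, or runs of 8 or more regions, left no run. The 0 runs with an interaction stayed 0 without the block and at an adjusted p under 0.05 in edgeR.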
